A study of Mus musculus with 15 samples.

Results

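Interferon-stimulated genes are the genes that cells switch on when an interferon binds its receptor, and 39 of them were followed here through lung group 2 innate lymphoid cells (ILC2s) of mice. The 39 were chosen by gene symbol, and the guanylate-binding proteins were left out. The rule held no measured value, but it was made with earlier results of these data known. Of the 39, 37 had an array feature annotated with their symbol and no other, and all 37 lay above the filter on dim features, out of 16257 genes tested and 22180 genes with such a feature. The remaining genes were Ifi44, for which no feature was found in the annotation used here, and Dtx3l, whose feature carried the symbol of Parp9 as well.

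Total RNA of lung ILC2s was measured on 15 Affymetrix arrays, 3 for each of 5 groups. Naive females and naive males were untreated adults of 8 weeks. Effector females and effector males were adults given IL-33 into the nose on 3 consecutive days, with cells isolated 1 day after the last dose. Neonates were untreated and 10 days old. The labels give the neonates no sex and the effector mice no age of their own. No group received the nasal dosing without IL-33, so IL-33, the dosing itself and any batch shared by the effector arrays cannot be told apart. For the strain, the number of mice behind a replicate and the sorting markers, nothing was stated in the sources used here. Replicates are called biological in the labels, so each p-value sets a difference against the spread between these samples. The number of arrays limits the precision. In sorted populations, fewer cells that express a gene and less RNA per cell cannot be told apart.

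Type I interferons bind the receptor pair Ifnar1 and Ifnar2 and type III interferons bind Ifnlr1 with Il10rb; in both cases the kinases Jak1 and Tyk2 phosphorylate Stat2, which joins Irf9 in the factor ISGF3. ISGF3 binds the interferon-stimulated response element upstream of genes that sense viral RNA, block viral entry or replication, and feed peptides to MHC class I. Interferon-gamma acts through its own receptor on genes with a gamma-activated site. ILC2s are resident lymphocytes of the lung that answer IL-33 with type 2 cytokines such as Il5 and Il13.

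Promoter sequence was looked at first. The genes are known as interferon-stimulated and act through this element, so a share of matches above that of all genes follows from the list. RefSeq promoters of mouse build GRCm38.p6, spanning 250 bases before to 50 bases after the annotated start, were found for 31 of the 39 genes. Usp18, Dhx58, Zbp1, Oas2, Mx1, Parp9, Parp14 and Rtp4 were not matched. The core of the response element, GAAANNGAAA on either strand, occurred in 13 of the 31 (41.9%) and in 3.99% of 27025 genes with a promoter of the same length. The longer form GAAANNGAAACT, which contains the core, occurred in 6 of the 31 (19.4%) and in 0.303% of all genes. The gamma-activated site, TTCNNNGAA, occurred in 8 of the 31 (25.8%) and in 9.55% of all genes. A match is a description of these letters and not a measured binding site. The stretches below come from the members with the largest rise (Ifitm3 and Ifitm2), from Bst2 and Isg15, and from the IFIT genes Ifit1, which was called higher, and Ifit3, which was not. Capitals mark the core in either orientation, and positions count from the annotated start.
Ifitm3, chr7:141010716-141010742, minus strand, positions 2 to 28: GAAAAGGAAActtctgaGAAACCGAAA
Ifitm2, chr7:140955978-140956027, minus strand, positions -66 to -17: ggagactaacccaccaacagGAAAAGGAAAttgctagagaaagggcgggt
Bst2, chr8:71537567-71537622, minus strand, positions -150 to -95: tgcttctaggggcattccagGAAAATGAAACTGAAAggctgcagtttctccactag
Isg15, chr4:156200855-156200916, minus strand, positions -98 to -37: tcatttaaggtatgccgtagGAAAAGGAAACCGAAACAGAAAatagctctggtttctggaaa
Ifit1, chr19:34640765-34640833, plus strand, positions -124 to -56: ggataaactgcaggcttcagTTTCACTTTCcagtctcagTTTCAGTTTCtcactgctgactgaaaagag
Ifit3, chr19:34583353-34583436, plus strand, positions -176 to -93: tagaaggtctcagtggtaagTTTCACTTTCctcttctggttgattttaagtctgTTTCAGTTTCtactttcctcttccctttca
Isg15 holds 3 overlapping copies of the core. Ifitm3, Bst2, Ifit1 and Ifit3 hold 2 each. With Isg15 they are the 5 members with 2 or more copies, so the printed stretches are not typical of the members. Ifit2, an IFIT gene that was called higher, held no copy in its promoters. Promoters with 2 or more copies made up 0.225% of all RefSeq promoters.

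All values below are log2 levels as deposited, so a difference of 1 is a 2-fold change, and a gene was called when limma's p-value, adjusted by Benjamini and Hochberg over all 16257 genes, was under 0.05. Array medians ranged from 4.44 to 4.64. Naive males 1 and 2 and neonate 2 correlated least with the other arrays (mean r 0.894, 0.903 and 0.909). For comparisons over both adult sexes, the counts without them are given where they differ. Naive male 3 is then the only naive male array and carries the male part of the naive mean. The ILC2 markers had features for 10 of 12 genes, none of them within the range of olfactory and vomeronasal receptor genes, which served as a measure of background. Their mean level per array was 8.72 to 9.18 in naive adults, 9.20 to 9.59 in effector adults and 9.17 to 9.60 in neonates. The upper quartile of the receptor genes was 4.07 in naive adults, 3.35 in effector adults and 3.72 in neonates.

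In naive adults the 37 genes were already measured over a wide range, with means from 3.22 to 8.60 and a median of 6.04. Ifit2, Oasl2, Ifitm1 and Mx1 lay within the background range there. No member did so in effector adults, and in neonates Mx1 did. Oas2, Isg15, Eif2ak2, Oasl1, Dhx58, Parp9, Rsad2, Ifit1 and Oas3 lay above the background range in naive adults. Their naive means were still below percentile 95 of the olfactory and vomeronasal receptor genes there, 5.46. Ifit2 and Mx1 passed the filter on dim features only through the effector arrays. The genes with the highest levels in naive adults were Lgals3bp, Tap1 and Ifi35, although levels of different features cannot be ranked against each other closely. Lgals3bp encodes a secreted galectin-binding glycoprotein, Tap1 a subunit of the peptide transporter that loads MHC class I, and Ifi35 a cytoplasmic leucine-zipper protein. Lgals3bp ran from 8.40 to 8.85 (median 8.55) in naive adults and from 10.08 to 10.55 (median 10.31) in effector adults, and it read 8.79, 9.18 and 9.04 in neonates. Tap1 ran from 8.13 to 8.80 (median 8.68) in naive adults and from 9.56 to 10.02 (median 9.83) in effector adults, and it read 8.76, 8.41 and 8.81 in neonates. For both genes every effector array lay above every naive and every neonatal array, while the naive and neonatal ranges overlapped.

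The first comparison asked how the genes responded to IL-33 in adults. Of the 37, 32 were higher in effector than in naive adults, 1 was lower (Samd9l) and 4 did not pass the test. Among all 16257 genes, 23.7% were called higher and 10.9% lower, and centring each array on its median made these shares 30.8% and 6.30%. The median difference was 1.24 over the 37 and 0.03 over all genes. Of the 32, 26 had a measured rise of at least 2-fold, as did 7.17% of all genes. Leaving out the 4 genes within the background range in naive adults, 29 of 33 were called higher and 1 lower, with a median of 1.33. For 27 of the 37, every effector array lay above every naive array, as it did for 15.2% of all genes. The mean level of the 37 per array ran from 5.84 to 6.12 in naive adults, from 6.86 to 7.43 in effector adults and from 5.81 to 5.98 in neonates. Without naive males 1 and 2 and neonate 2, 29 were called higher.

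**Figure D1:**
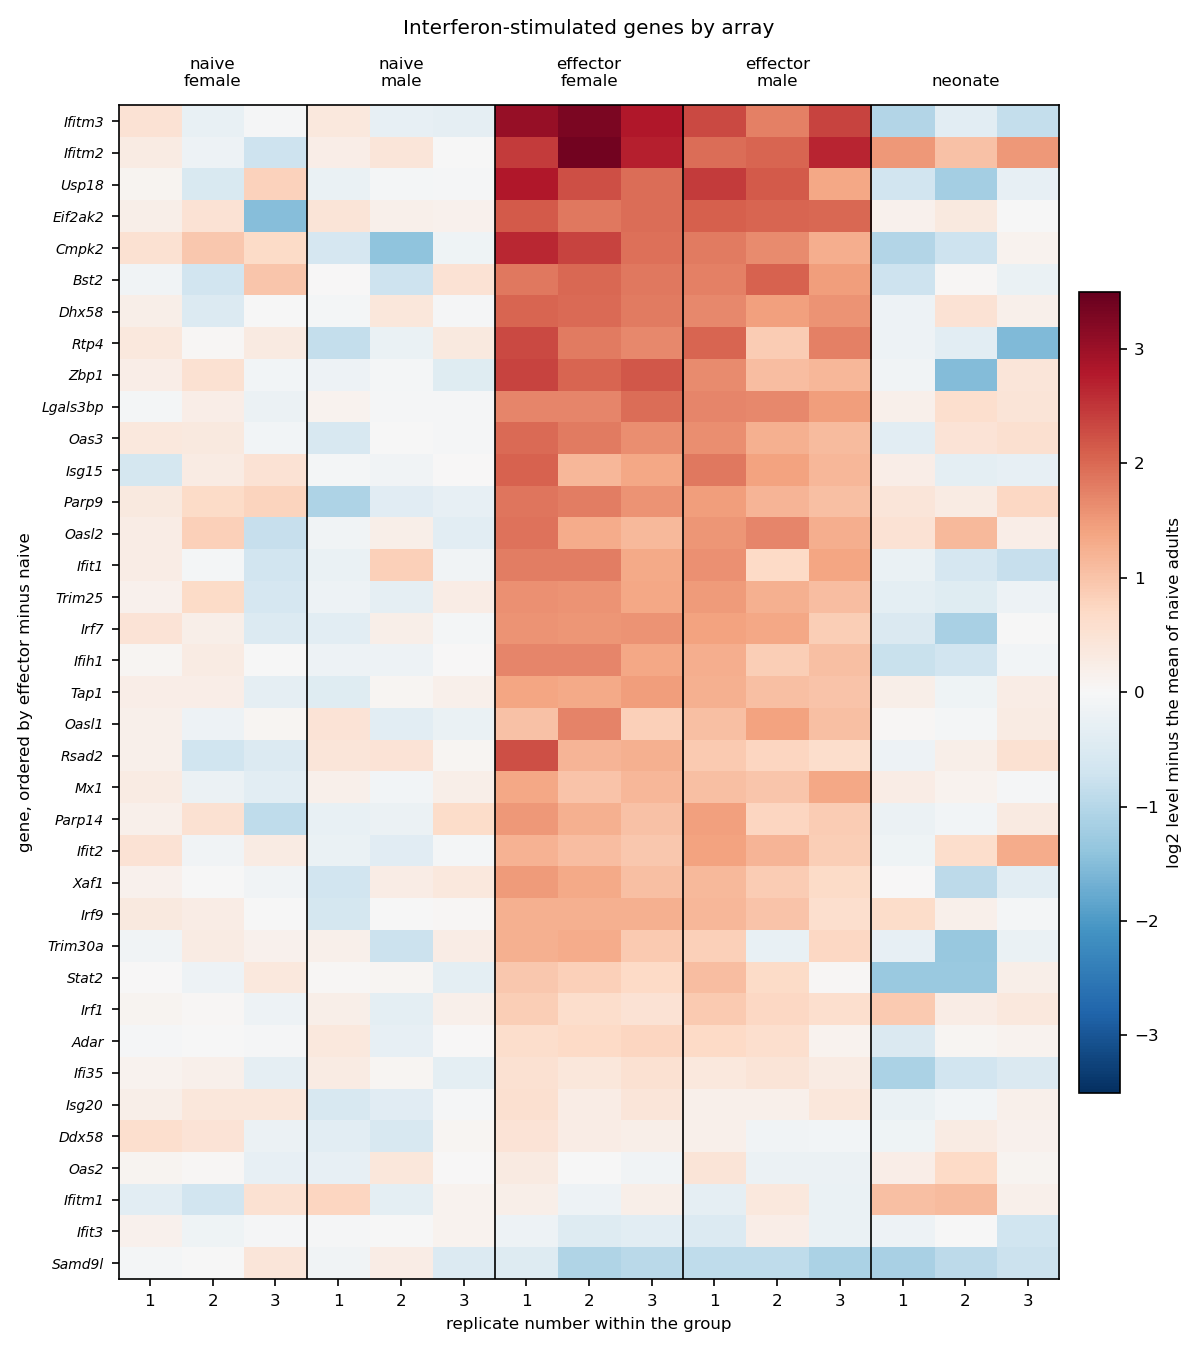
Log2 level of the 37 genes on each of the 15 arrays, minus the mean of the 6 naive adult arrays, with red above and blue below that mean and genes ordered by the effector minus naive difference. The 6 effector columns are mostly red from Ifitm3 down to the lower rows, with effector male 2 pale for Trim30a and effector male 3 for Stat2, and at the bottom Ddx58, Oas2, Ifitm1 and Ifit3 stay pale and Samd9l is blue.

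The largest rises were in the membrane-bound restriction factors, which stop viruses at the cell's own membranes. Ifitm3 and Ifitm2 encode transmembrane proteins that hinder virus entry through endosomes. Ifitm3 ran from 5.78 to 6.59 (median 5.94) in naive adults and from 7.86 to 9.38 (median 8.67) in effector adults. The difference was 2.59 (SE 0.18), a 6.04-fold rise with an adjusted p of 5.52e-08 from limma. Ifitm2 ran from 5.32 to 6.45 (median 6.14) in naive adults and from 7.98 to 9.41 (median 8.59) in effector adults, a rise of 2.53 (SE 0.20, 5.78-fold, adjusted p = 2.02e-07). Bst2, or tetherin, which holds budding virions at the cell surface, ran from 7.09 to 8.77 (median 7.76) in naive adults and from 9.27 to 9.87 (median 9.65) in effector adults, a rise of 1.83 (SE 0.26, adjusted p = 6.73e-05). In these 3 genes the naive and effector arrays did not overlap. Ifitm1, the neighbouring relative of Ifitm2 and Ifitm3, gave 3.65 ± 0.56 (SD, n = 6) in naive adults and 3.66 ± 0.29 (SD, n = 6) in effector adults, a difference of 0.01 (SE 0.25) that did not pass the test. The naive mean of Ifitm1 was within the background range.

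Isg15, a ubiquitin-like protein that is coupled to other proteins, and Usp18, the protease that removes it and dampens signalling at Ifnar2, both rose. Usp18 ran from 5.10 to 6.44 (median 5.58) in naive adults and from 6.998 to 8.45 (median 7.84) in effector adults, a rise of 2.16 (SE 0.24, 4.48-fold, adjusted p = 8.45e-06 by limma). Isg15 ran from 3.85 to 4.97 (median 4.44) in naive adults and from 5.63 to 6.54 (median 5.85) in effector adults, a rise of 1.50 (SE 0.21, adjusted p = 6.28e-05). Neither gene's naive and effector arrays overlapped.

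Of the 7 sensors of foreign nucleic acid and their regulators, 6 rose. Eif2ak2 encodes the kinase PKR, which halts translation on binding double-stranded RNA. It ran from 3.04 to 5.06 (median 4.73) in naive adults and from 6.39 to 6.67 (median 6.57) in effector adults, a rise of 2.02 (SE 0.25, adjusted p = 2.36e-05). The lowest of these, 3.04, was naive female 3, and the other naive arrays lay between 4.68 and 5.06. Dhx58, which encodes the RIG-I-like receptor LGP2, ran from 4.21 to 5.06 (median 4.65) in naive adults and from 6.12 to 6.72 (median 6.43) in effector adults, a rise of 1.76 (SE 0.15, adjusted p = 4.15e-07). In both genes the effector arrays stood clear of the naive arrays. Zbp1, a sensor of Z-form nucleic acid that can trigger necroptosis, rose by 1.75 (SE 0.25). Trim25, the ubiquitin ligase that acts on RIG-I, rose by 1.39 (SE 0.18), and Ifih1, which encodes the sensor MDA5, rose by 1.33 (SE 0.14). Adar, which edits adenosine in double-stranded RNA, rose by 0.58 (SE 0.15) with overlapping arrays. Ddx58, the gene of RIG-I itself, ran from 7.31 to 8.46 in naive adults and from 7.75 to 8.35 in effector adults, and its difference of 0.15 (SE 0.16, adjusted p = 0.501 by limma) did not pass the test.

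All 4 transcription factors of the response rose, with a median difference of 0.90. Irf7, which amplifies type I interferon production, ran from 5.48 to 6.46 (median 6.04) in naive adults and from 6.82 to 7.54 (median 7.43) in effector adults, a rise of 1.38 (SE 0.20, adjusted p = 9.67e-05). Irf9, the DNA-binding part of ISGF3, rose by 1.08 (SE 0.16), and Irf1 by 0.70 (SE 0.15), both without overlap. Stat2 rose by 0.71 (SE 0.24, adjusted p = 0.0347 by limma), but naive and effector arrays overlapped, and it lost its call in 10 of 25 alternatives, 8 of them leaving out a single array. Its difference ran from 0.52 to 0.85 over those alternatives, with an adjusted p from 0.0043 to 0.127.

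In the IFIT family 2 of 3 genes rose, and in the oligoadenylate synthetase family 3 of 4. IFIT proteins bind foreign RNA ends and block their translation. Ifit1 ran from 4.35 to 5.85 (median 4.94) in naive adults and from 5.74 to 6.82 (median 6.53) in effector adults, a rise of 1.43 (SE 0.22), with naive male 2 above effector male 2. Ifit2 rose by 1.12 (SE 0.20) from a naive mean within the background range. Set against the upper edge of that range instead, the rise was 1.45-fold. That edge is an upper quartile, so some background features read above it and the value is no lower bound. The effector mean of Ifit2, 4.61, lay below percentile 95 of the olfactory and vomeronasal receptor genes in effector adults, 4.63. Ifit2 passed the filter on dim features only through the effector arrays. Ifit3, with 2 matches to the core in its promoter, had a mean of 6.82 ± 0.11 (SD, n = 6) in naive adults and 6.58 ± 0.26 (SD, n = 6) in effector adults, a difference of -0.24 (SE 0.15, adjusted p = 0.222 by limma). Among the oligoadenylate synthetases, which activate RNase L, and their relatives, Oas3 rose by 1.57 (SE 0.18), Oasl2 by 1.47 (SE 0.25) and Oasl1 by 1.19 (SE 0.18). The naive mean of Oasl2 was within the background range, from whose upper edge the rise was 2.35-fold. Oas2 had a difference of 0.04 (SE 0.17) and did not pass. Members of these families have close relatives in the genome, and which transcripts their probes reach was not checked here.

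Of the 6 other antiviral effectors, 5 rose and 1 fell. Cmpk2, a mitochondrial nucleotide kinase encoded beside Rsad2, ran from 4.52 to 6.86 (median 6.10) in naive adults and from 7.18 to 8.55 (median 7.78) in effector adults, a rise of 1.94 (SE 0.23, 3.84-fold, adjusted p = 1.29e-05). Rsad2, or viperin, which makes a chain-terminating nucleotide, rose by 1.16 (SE 0.20), and the GTPase Mx1 by 1.15 (SE 0.13) from a naive mean within the background range. From the upper edge of that range the rise of Mx1, which passed the filter on dim features only through the effector arrays, was 1.24-fold. The effector mean of Mx1, 4.37, lay below percentile 95 of the olfactory and vomeronasal receptor genes in effector adults, 4.63. Trim30a rose by 0.79 (SE 0.24) and the exonuclease gene Isg20 by 0.34 (SE 0.12), both with overlapping arrays. The Trim30a call was lost in 3 of 25 alternatives, once by leaving out a single array (effector male 1, at 0.69), with differences from 0.61 to 0.97 and adjusted p from 0.00521 to 0.06. The Isg20 call was lost in 14 of 25 alternatives, with differences from 0.15 to 0.48 and adjusted p from 0.00785 to 0.394. Samd9l, a translation-repressing restriction factor, went the other way. It ran from 6.71 to 7.62 (median 7.14) in naive adults and from 6.09 to 6.75 (median 6.27) in effector adults, and it fell by 0.89 (SE 0.16, adjusted p = 0.000444 by limma). The only overlap was effector female 1 at 6.75 above naive male 3 at 6.71.

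All 7 tested genes of the remaining groups rose. The ADP-ribosyltransferase genes Parp9 and Parp14 rose by 1.49 (SE 0.15) and 1.15 (SE 0.24). Rtp4, a chaperone of membrane receptors, ran from 4.86 to 6.05 (median 5.87) in naive adults and from 6.59 to 8.00 (median 7.49) in effector adults, a rise of 1.75 (SE 0.26, adjusted p = 0.000124). Lgals3bp rose by 1.71 (SE 0.12, 3.26-fold, adjusted p = 4.45e-08), Tap1 by 1.24 (SE 0.14) and Xaf1, an inhibitor of anti-apoptotic XIAP, by 1.10 (SE 0.19). Ifi35 ran from 8.14 to 8.78 (median 8.59) in naive adults and from 8.78 to 9.04 (median 8.91) in effector adults, a rise of 0.43 (SE 0.14, adjusted p = 0.0303 by limma). Its call was lost in 8 of 25 alternatives, 6 of them leaving out a single array, with differences from 0.17 to 0.61 and adjusted p from 0.00725 to 0.25. The second, dimmer Ifi35 feature read 4.53 in naive and 4.44 in effector adults, so the features of Ifi35 disagreed in sign.

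**Figure D2:**
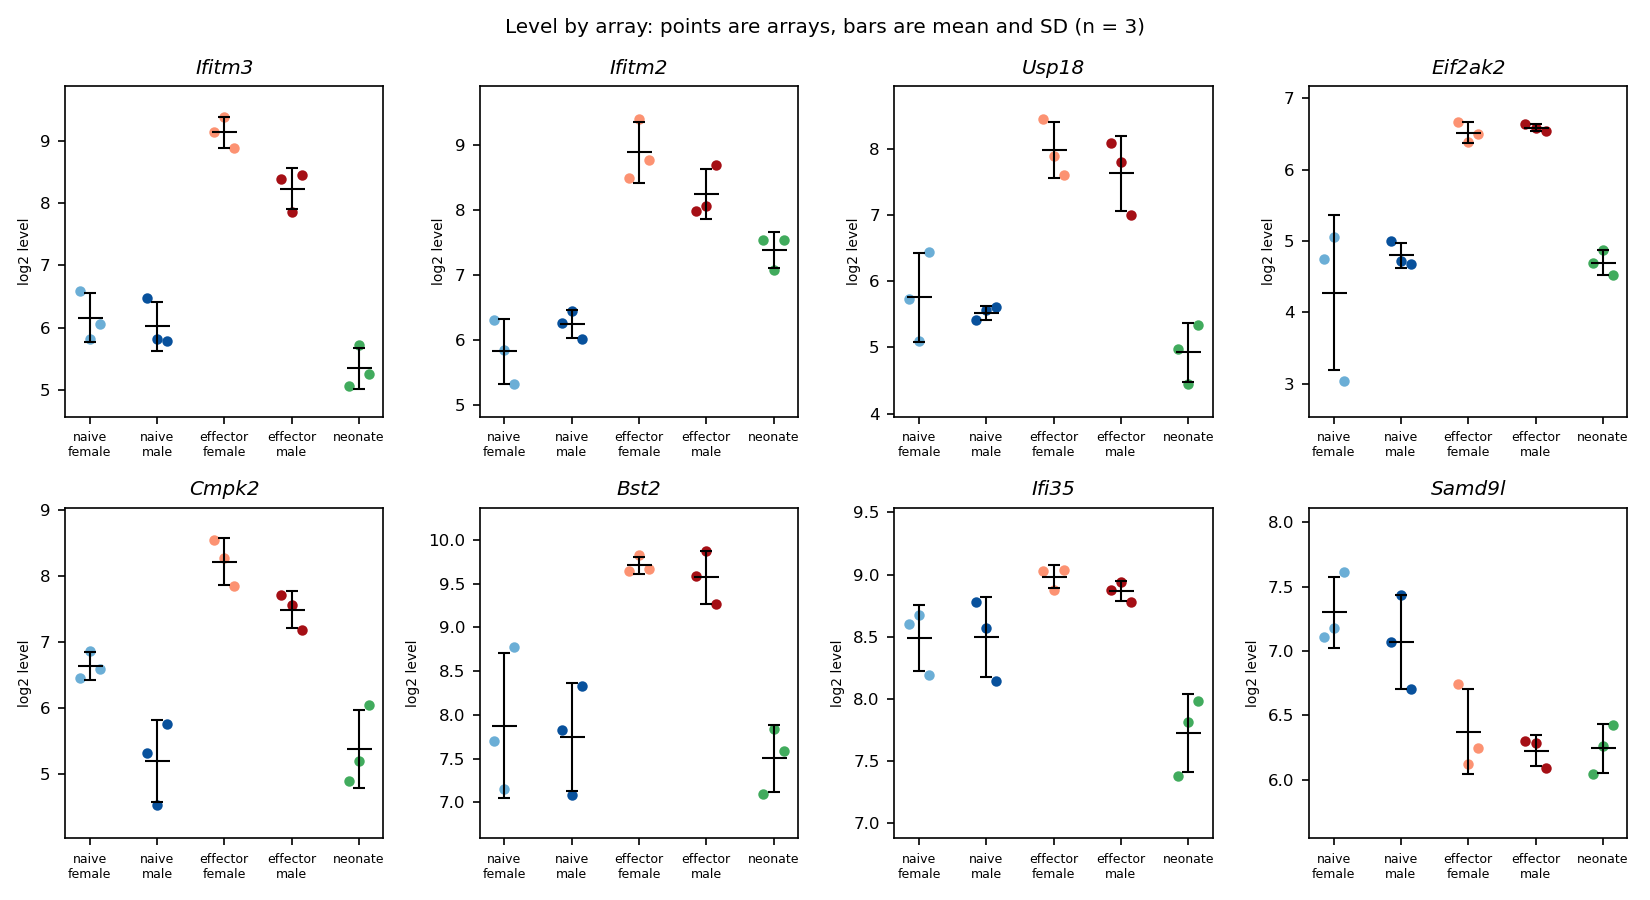
Log2 level of 8 of the genes, one panel each, with a point per array and the mean and SD of the 3 arrays of each labelled group. Effector points lie above naive points for Ifitm3, Ifitm2, Usp18, Eif2ak2, Cmpk2 and Bst2, neonatal Ifitm2 lies between naive and effector adults, neonatal Ifi35 lies below both, and Samd9l is lower in effector adults and neonates than in naive adults.

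Response element matches stood both in genes that rose and in genes that did not pass the test. The core was present in 11 of the 25 higher genes with a promoter and in 2 of the 4 tested genes with a promoter that were not called higher (Ddx58 and Ifit3, against Ifitm1 and Samd9l without it). The longer form stood in 4 of the 25 and in 2 of the 4. The higher genes without the core in this window included Irf7, Irf9, Cmpk2, Tap1 and Lgals3bp.

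The neonatal cells were compared with both adult states, and these comparisons share arrays with the one above: naive adults serve in it and in the neonate against naive comparison, and effector adults in it and in the neonate against effector comparison. Against effector adults, 28 of the 37 genes were lower in neonates, 0 were higher and 9 did not pass the test. Among all genes 14.7% were lower and 5.93% higher, and the 28.8% of called genes that were higher became 16.4% when each array was centred on its median. The median difference was -1.20 over the 37 and -0.03 over all genes. For 25 genes every neonatal array lay below every effector array, as for 16.2% of all genes. At an unadjusted p under 0.05, 31 of the 37 differed, against 34.3% of all genes. Mx1, whose neonatal mean was within the background range, is among the 28.

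The 6 largest differences were in Ifitm3, Usp18, Cmpk2, Rtp4, Zbp1 and Bst2. Ifitm3 read 5.07, 5.72 and 5.25 in the neonates and fell by 3.34 (SE 0.23, adjusted p = 6.32e-07 by limma) against effector adults. Usp18 read 4.98, 4.45 and 5.34 and fell by 2.88 (SE 0.30, adjusted p = 1.76e-05). Cmpk2 read 4.89, 5.19 and 6.04 and fell by 2.48 (SE 0.28, adjusted p = 3.45e-05). All neonatal arrays of these 3 genes lay below the lowest effector array. Rtp4 read 5.52, 5.32 and 4.13 and fell by 2.45 (SE 0.32, adjusted p = 0.000149). Zbp1 read 6.997, 5.60 and 7.54, against 8.21 to 9.50 (median 8.95) in effector adults, and fell by 2.15 (SE 0.31, adjusted p = 0.000275). Bst2 read 7.09, 7.84 and 7.58 and fell by 2.14 (SE 0.32, adjusted p = 0.000343). Among these 6 genes the spread between neonates was widest for Zbp1, where neonate 2 was low, and for Rtp4, where neonate 3 was low, and none of their arrays reached the effector range. The genes that did not pass against effector adults were Irf1, Ddx58, Ifit2, Ifit3, Oas2, Oasl2, Ifitm1, Isg20 and Samd9l. Of the 28 calls, 4 were lost in at least 1 of 25 alternatives (Irf9, Adar, Rsad2 and Parp14). The calls of Adar, Rsad2 and Parp14 were lost when neonate 1 was left out, at -0.48, -0.79 and -1.04. The further genes Ifit2, Isg20 and Ifitm1 were called when neonate 3 was left out, at -0.89, -0.50 and 1.07. Oasl2 was called in 7 of 25 alternatives, 3 of them leaving out a single array (naive female 2 or 3, or neonate 2), with differences from -1.09 to -0.64 and adjusted p from 0.0199 to 0.195. The Parp14 call was lost without neonate 2 as well, at -1.10.

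Against naive adults the 37 genes stood on both sides of 0. The only higher gene was Ifitm2, 3 were lower (Samd9l, Ifi35 and Ifitm3) and 33 did not pass the test, where 6.04% of all genes were higher and 4.12% lower. The median difference was -0.05 over the 37 and 0.02 over all genes, with 18 differences above 0 and 19 below. A difference that missed the threshold does not show equal levels: at an unadjusted p under 0.05, 14 of the 37 differed, against 25.3% of all genes.

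Ifitm2 read 7.55, 7.07 and 7.55 in neonates, above all 6 naive arrays (highest 6.45) and below all 6 effector arrays (lowest 7.98). It rose by 1.35 (SE 0.25, 2.55-fold, adjusted p = 0.00285 by limma) over naive adults and fell by 1.18 (SE 0.25) from effector adults. Its neighbour Ifitm3 went the opposite way, with all 3 neonatal arrays below the lowest naive array of 5.78, a fall of 0.74 (SE 0.23, adjusted p = 0.0483). That call was near the threshold and was lost in 17 of 25 alternatives, 10 of them leaving out a single array, with differences from -0.93 to -0.61 and adjusted p from 0.0324 to 0.181. Ifi35 read 7.38, 7.81 and 7.98 and lay below all naive arrays, a fall of 0.77 (SE 0.18, adjusted p = 0.0121 by limma). Its call was lost in 4 of 25 alternatives, among them without neonate 1 at -0.60 and with the mean of both Ifi35 features at -0.29. Samd9l read 6.04, 6.26 and 6.42, below the lowest naive array of 6.71. It fell by 0.94 (SE 0.19, adjusted p = 0.0056 by limma), and between neonates and effector adults it differed by -0.06 (SE 0.19). Without naive males 1 and 2 and neonate 2, 0 of the 37 were called lower in neonates and 1 was called higher. Stat2 read 5.98, 5.96 and 7.48 in neonates against 6.93 to 7.64 in naive adults, a difference of -0.80 (SE 0.30) that was called only without neonate 3, at -1.30. Without that array Ifih1 was called lower too, at -0.72, and Ifitm1 higher, at 1.08. Ifit2 was called higher without neonate 1, at 0.96, and Ifitm1 was called without naive female 3, at 0.95.

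**Figure D3:**
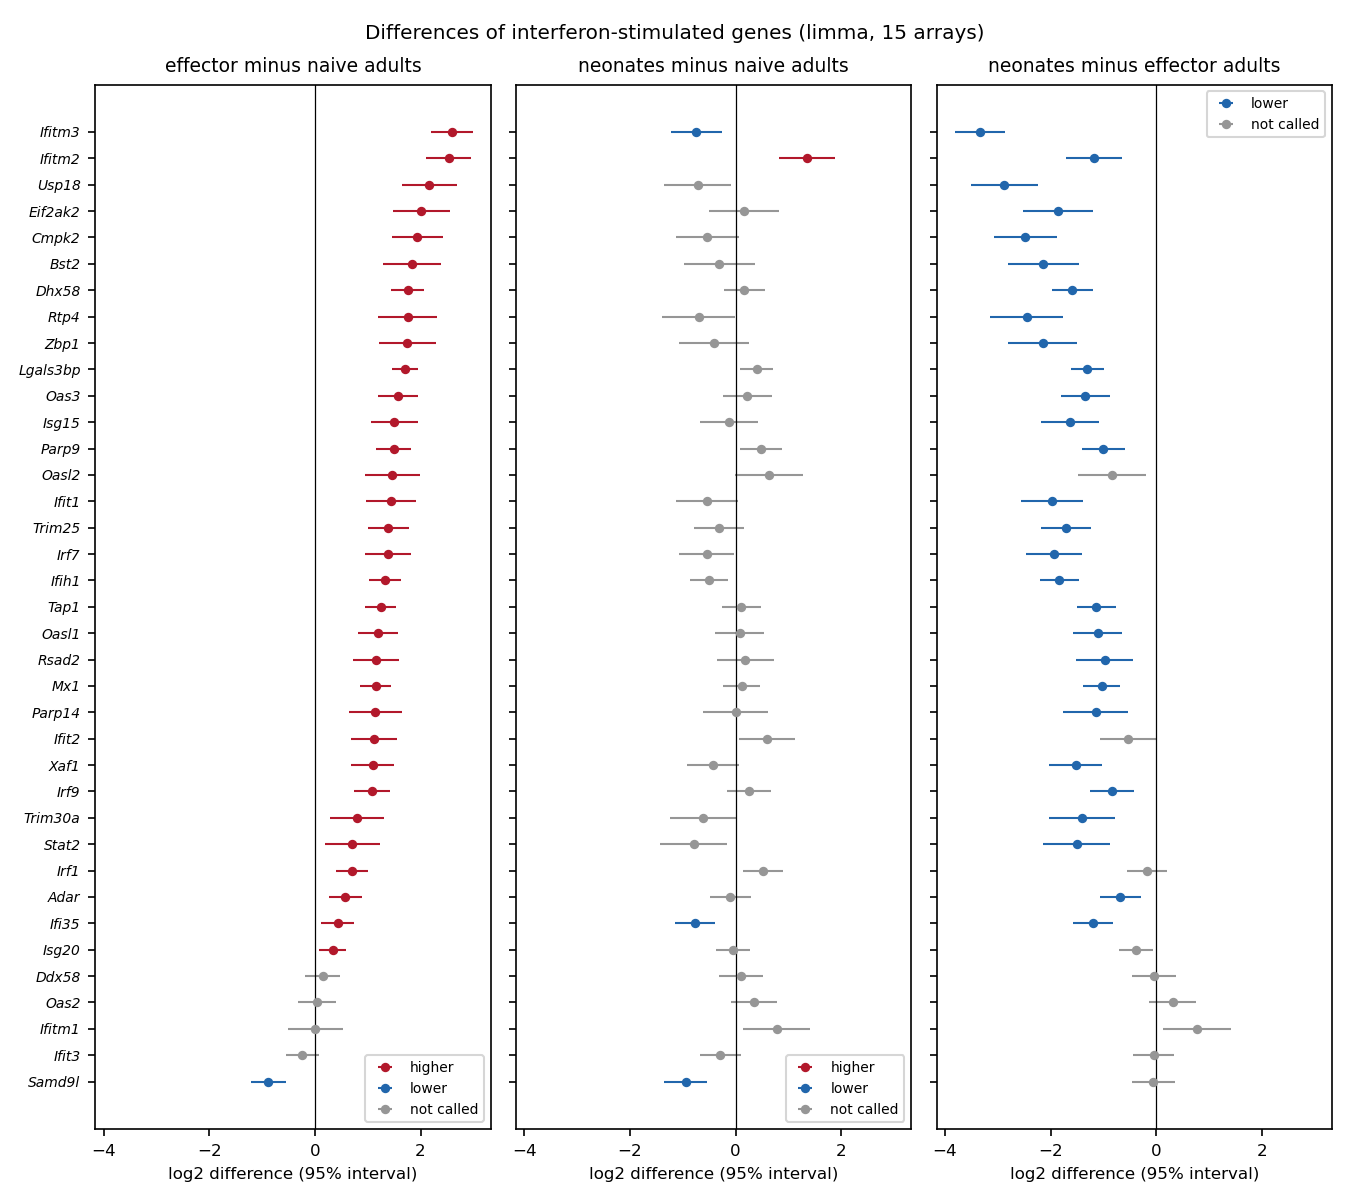
Log2 difference of each of the 37 genes with its 95% interval from limma, for effector minus naive adults, neonates minus naive adults and neonates minus effector adults, with red for higher, blue for lower and grey for not called. In the first panel 32 intervals are red and 1 is blue, in the second 1 is red and 3 are blue, and in the third 28 are blue.

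The adult response was then split by sex. In females 27 of the 37 genes were higher and 1 lower (10.2% and 3.77% of all genes), with a median difference of 1.33. In males 27 were higher and 1 lower (18.7% and 6.25% of all genes), with a median of 1.17. Samd9l was the lower gene in both. Leaving out naive males 1 and 2 leaves naive male 3 as the only naive male array, so no count in males is given for that setting. The difference between the responses was called for 0 of the 37 and for 0% of all genes by limma. At an unadjusted p under 0.05 it stood out for 3 of the 37 (Rsad2, Ifitm2 and Parp9) and for 5.33% of all genes.

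Rsad2 had the widest gap between the sexes. Naive females read 5.18, 4.31 and 4.53 and effector females 7.26, 6.18 and 6.24, a rise of 1.89. Naive males read 5.42, 5.49 and 5.08 and effector males 5.93, 5.76 and 5.62, a difference of 0.44 that did not pass. The responses differed by 1.45 (SE 0.41, 95% interval 0.57 to 2.32), with an adjusted p of 0.72 from limma. Ifitm2 rose by 3.06 in females and 2.00 in males, a gap of 1.06 (SE 0.40, 95% interval 0.20 to 1.92, adjusted p = 0.867). Neither gap passed over all genes.

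At rest, Parp9 was the 1 gene of the 37 called between the sexes, where 0.209% of all genes were. Naive females read 5.16, 5.49 and 5.60 and naive males 3.74, 4.43 and 4.52, so that females were higher by 1.18 (SE 0.22, adjusted p = 0.042 by limma) and the arrays did not overlap. The naive male mean, 4.23, lay near the upper quartile of the olfactory and vomeronasal receptor genes in naive males, 4.18. Naive male 1 lay below that quartile. The call was lost in 17 of 25 alternatives, 12 of them leaving out a single array, with differences from 0.89 to 1.33 and adjusted p from 0.0228 to 0.397. After IL-33, 0 of the 37 were called between females and males, against 0.0308% of all genes, and 8 of the 37 had an unadjusted p under 0.05, against 2.04% of all genes. The effector female minus effector male difference was above 0 for 32 of the 37 and for 51.8% of all genes, with a median of 0.25 over the 37 and 0.01 over all genes. For 13 of them, among them Ifitm3, Cmpk2 and Zbp1, the arrays did not overlap, as for 6.02% of all genes. In naive adults the female minus male difference was above 0 for 23 of the 37. Its median was 0.13 over the 37 and 0.09 over all genes.

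**Figure D4:**
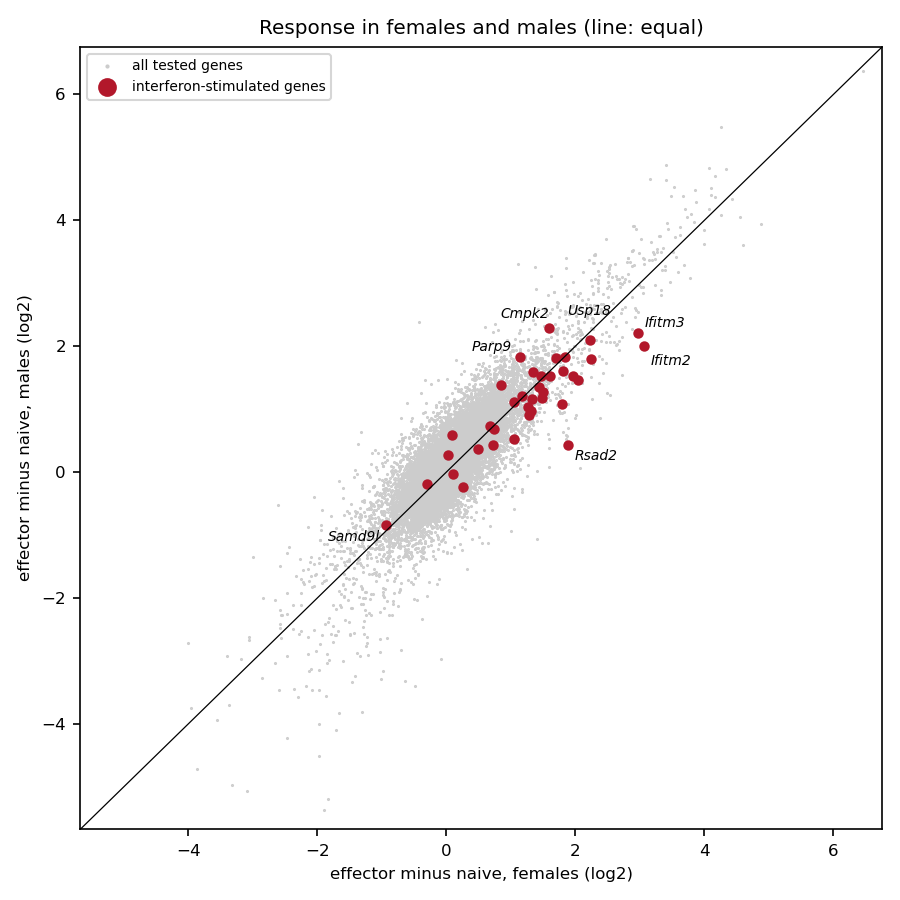
Effector minus naive log2 difference in females (horizontal) and males (vertical), with the 37 genes in red over all 16257 tested genes in grey and a line of equal response. Ifitm2, Ifitm3 and Rsad2 lie below the line and Cmpk2 and Parp9 above it, while Samd9l is at the lower left with the same sign in both sexes.

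The rest of the interferon pathway was read from lists of its ligands, receptors, signalling proteins, sensors and targets, whose counts after IL-33 stand beside 23.7% of all genes higher and 10.9% lower. None of the interferon ligand genes rose in effector adults. Of 21 ligand genes listed, 19 had a feature, 11 were tested, 0 were higher and 2 were lower, namely Ifna4 (fell by 0.94, SE 0.26) and Ifna6 (fell by 0.47, SE 0.17). These belong to a family of near-identical genes, so the values may not be theirs alone. The upper quartile of the olfactory and vomeronasal receptor genes was itself 4.07 in naive and 3.35 in effector adults. The part of that background shift in the 2 falls was not tested. Ifng had 4.09 ± 0.23 (SD, n = 6) in naive and 4.48 ± 0.25 (SD, n = 6) in effector adults, a difference of 0.39 (SE 0.19, adjusted p = 0.123 by limma). Ifnb1 was too dim to be tested, at 2.49 and 2.56, and of the 19 ligand features 9 in naive and 7 in effector adults lay within the background range. Of 6 receptor subunits 0 were called, with differences from -0.32 (SE 0.17) for Ifngr2 to 0.38 (SE 0.18) for Ifnar1.

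Between receptor and nucleus, 4 of 9 tested genes rose and 0 fell. Socs3, a feedback inhibitor of cytokine receptors, rose by 1.43 (SE 0.17), Stat3 by 0.60 (SE 0.12), and the kinase genes Tyk2 and Jak2 by 0.54 (SE 0.19) and 0.53 (SE 0.14). All 4 also serve cytokines other than interferons. Among 10 genes that sense nucleic acid upstream of interferon, 4 rose and 2 fell, with a median difference of 0.02. Cgas, which detects DNA in the cytosol, rose by 1.41 (SE 0.19), the adaptor gene Myd88 by 0.91 (SE 0.15), the kinase gene Tbk1 by 0.81 (SE 0.25) and Sting1 by 0.62 (SE 0.13). Ikbke fell by 0.52 (SE 0.18) and Irf3 by 0.51 (SE 0.14). Myd88 also carries the signal of the IL-33 receptor.

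Targets of interferon beyond the 37 members came next. Of 37 tested genes on a list of 48 further interferon-stimulated genes, 13 rose, 2 fell and 22 did not pass the test, with a median difference of 0.24. Ifi204, of the DNA-binding p200 family, rose by 2.35 (SE 0.29) from a naive mean of 1.91 within the background range. From the upper edge of that range the rise was 1.14-fold. Its effector mean, 4.26, lay below percentile 95 of the olfactory and vomeronasal receptor genes in effector adults, 4.63. Phf11b rose by 2.24 (SE 0.23), Helz2 by 1.05 (SE 0.14) and Parp12 by 1.05 (SE 0.21), while Ifi205 fell by 0.54 and Shisa5 by 0.43. Of 10 genes that lean towards interferon-gamma, 5 rose and 0 fell, with a median of 0.47. The immunity-related GTPase genes Igtp and Irgm1 rose by 2.00 (SE 0.30) and 1.05 (SE 0.19), Irf8 by 1.19 (SE 0.19) and the chemokine gene Cxcl10 by 0.80 (SE 0.18). Of 12 genes of MHC class I processing, 4 rose and 0 fell, with a median of 0.34. They were the immunoproteasome subunit genes Psmb9 (1.23, SE 0.15) and Psmb8 (0.56, SE 0.12), the class I transactivator gene Nlrc5 (0.84, SE 0.17) and H2-T23 (0.77, SE 0.14).

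**Figure D5:**
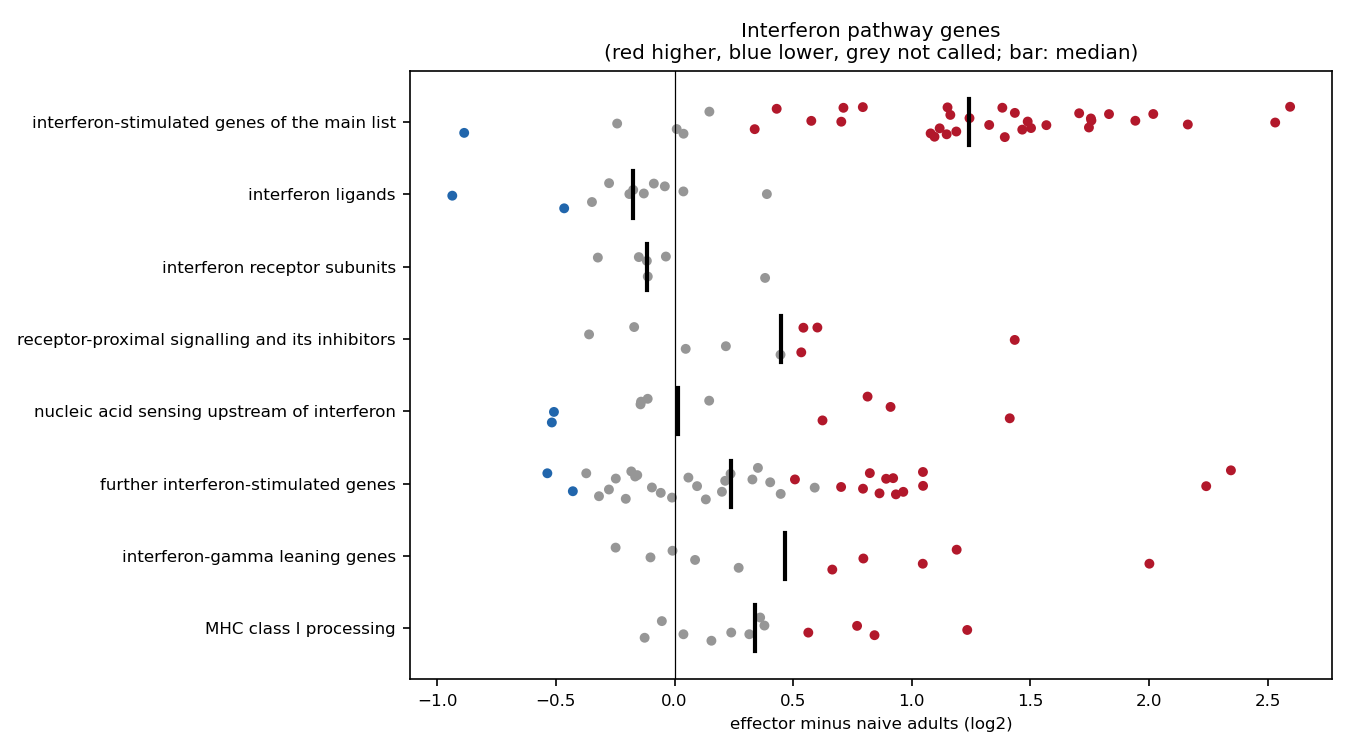
Effector minus naive log2 difference of each tested gene of the 37 and of 7 pathway lists, with red for higher, blue for lower, grey for not called, a bar at each median and a vertical offset within each list that has no meaning. The medians are 1.24 for the 37, -0.17 for ligands, -0.11 for receptors and 0.24 for further interferon-stimulated genes.

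In neonates against naive adults, calls stood beside 6.04% of all genes higher and 4.12% lower. Of the receptor subunits 1 of 6 was higher, and of the signalling genes 2 of 9 were higher and 1 lower. Of the sensing genes 1 of 10 was lower, of the interferon-gamma leaning genes 2 of 10 and of the class I processing genes 1 of 12, with 0 higher in these 3 lists. Ifnar1 was higher by 0.76 (SE 0.22), Stat3 by 0.81 (SE 0.15) and Jak2 by 0.80 (SE 0.18). The feedback inhibitor gene Socs1 was lower by 0.80 (log2 difference -0.80, SE 0.16) and Irf3 fell by 1.20 (SE 0.17). Among the 37 further interferon-stimulated genes tested, 1 was higher (Phf11b, 0.97) and 6 were lower, led by Trim30d (-1.22, SE 0.29), Trim34a (-1.18, SE 0.19) and Ube2l6 (-0.91, SE 0.19). Iigp1 fell by 1.41 (SE 0.23), Ciita by 0.53 (SE 0.14) and Psmb10 by 0.46 (SE 0.13), and 0 of 11 ligand genes were called. Against effector adults, 22 of the 37 further interferon-stimulated genes, 7 of 10 interferon-gamma leaning genes and 4 of 12 class I processing genes were lower in neonates and 0 of any of these were higher, where 14.7% of all genes were lower and 5.93% higher. Trim30d (-2.04, SE 0.29), Parp12 (-1.60, SE 0.25), Igtp (-1.89, SE 0.37) and H2-T23 (-1.22, SE 0.17) were among the genes that fell. Of 11 ligand genes 1 was higher in neonates than in effector adults, Ifnl2 by 0.48 (SE 0.16). Of 6 receptor subunits 1 was higher, Ifnlr1 by 0.51 (SE 0.14), and 0 of either list were lower. The upper quartile of the olfactory and vomeronasal receptor genes was also higher in neonates, at 3.72 against 3.35. Of 9 signalling genes 2 were lower and of 10 sensing genes 4, with 0 higher in either list. The median differences were 0.07 and -0.22. Among those lower, Socs3 fell by 1.26 (SE 0.21), Socs1 by 0.63 (SE 0.16) and Cgas by 1.01 (SE 0.23).

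Markers of other cell types were read from lists beside these results. In effector against naive adults their calls stand beside 23.7% of all genes higher and 10.9% lower. In neonates the shares were 6.04% higher and 4.12% lower against naive adults, and 5.93% higher and 14.7% lower against effector adults. Plasmacytoid dendritic cells are a known source of type I interferon, and their 7 marker genes had a mean level per array of 4.41 to 4.95 in naive adults, 4.40 to 4.78 in effector adults and 4.53 to 4.70 in neonates. Of the 6 tested, 0 rose and Ccr9 fell by 1.08 (SE 0.22) in effector adults, and Klk1 lay within the background range in all 3. The 10 macrophage and monocyte markers ran from 4.71 to 5.19, from 4.53 to 4.70 and from 4.45 to 5.17, with Cd68 higher by 0.63 (SE 0.17) and 3 of 8 tested lower in effector adults, and Chil3 within the background range throughout. The 7 T cell markers ran from 5.41 to 5.67, from 5.06 to 5.35 and from 5.66 to 5.85, with 0 of 7 higher and 2 lower in effector adults. Of the markers tested for conventional dendritic cells, natural killer cells, neutrophils, endothelium and epithelium, 0 rose in effector adults. There 1 of 4 conventional dendritic cell, 1 of 4 natural killer, 1 of 3 neutrophil, 3 of 6 endothelial and 0 of 6 epithelial markers fell. Of 3 B cell markers Cd79b rose by 1.00 (SE 0.24) and Ighm fell by 2.19 (SE 0.21). Of the 10 ILC2 markers Il13 rose by 3.07, Il5 by 1.46 and Arg1 by 0.59, and Il7r fell by 1.11. In neonates against effector adults the ILC2 markers Icos (0.85) and Rora (0.73) were higher and Il13 fell by 0.70. The T cell markers Cd3e (1.40) and Cd3g (0.72) were higher there, as were 2 of 3 B cell markers, 2 of 8 macrophage and monocyte markers, 1 of 6 endothelial markers and the epithelial marker Sftpc (2.67). Of 6 plasmacytoid dendritic cell markers 1 was higher and 2 were lower, and of the conventional dendritic cell, natural killer and neutrophil markers 0 were called. In neonates against naive adults 3 of 10 ILC2 markers were higher and 1 lower, 1 of 7 T cell, 1 of 8 macrophage and 1 of 6 epithelial markers were higher, and 1 of 3 B cell, 1 of 4 conventional dendritic cell and 1 of 3 neutrophil markers were lower. The part of other cell types in the interferon-stimulated genes was not tested. Nor was the part that the lower background of effector adults (upper quartile 3.35, against 4.07 in naive adults) had in the falls of dim markers.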

How the data were processed

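Total RNA of lung ILC2s was hybridised to 1 array per sample, 15 in all. The deposited values are log2 levels made with Affymetrix Expression Console and RMA, per the submitters' processing notes. No version or filter of that step was stated in the sources used here. Of 41345 features, 23521 carried 1 gene symbol in the platform annotation, 1814 several and 16010 none, and the last 2 kinds were left out. Dim features were removed unless 3 or more arrays read them above percentile 40 of the array. The feature with the highest mean stood for a gene, which left 16257 genes.

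Group means of the 5 groups were fitted to all 15 arrays in R 4.3.3 using limma 3.58.1 (lmFit, eBayes, 10 residual degrees of freedom), weighting the sexes equally. All 5 groups shared 1 estimate of the spread per gene. The mean r of an array with its own group was 0.979 to 0.982 in effector adults and 0.951 to 0.964 in naive females. In naive males and neonates it was 0.933 to 0.941. P-values were adjusted by Benjamini and Hochberg over all genes, and the members' rows were then read off. Fold changes are 2 to the power of the log2 difference. The steps were tested on simulated data. The background range is the upper quartile of 1400 unfiltered olfactory and vomeronasal receptor features. No pair of arrays held identical values (highest r 0.984).

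The members, lists and tests were chosen with earlier results of these data known. Values by array are given for the 8 largest called rises and every called fall after IL-33, for at most 6 called genes of each neonatal comparison and for the 3 highest naive levels; other genes by family. Up to 4 called genes are named per pathway list, or 2 where none was called, and genes called between the sexes are named. Rsad2 and Ifitm2 in the comparison of responses, the genes not called after IL-33 and the array values of Isg15, Ifit1, Irf7, Ddx58 and Stat2 were chosen after their values were seen, as were the cell type markers named and the falling genes of the pathway lists.

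Promoters came from RefSeq (GRCm38.p6). Alternatives covered the filter, centring, quantile normalization, the prior, array weights, a replicate block, fewer arrays and the mean of a gene's features. Leaving out the 3 least correlated arrays was added after seeing the data.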

Additional observations from a re-analysis of the deposited data

Results flagged for a closer look

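Features outside the comparisons carried the effector signal in 2 cases, each with every effector array above every naive array. The feature annotated with both Dtx3l and Parp9, genes that lie head to head and whose products form a complex, read 6.44 ± 0.49 (SD, n = 6) in naive adults, 7.65 ± 0.20 (SD, n = 6) in effector adults and 6.67 ± 0.17 (SD, n = 3) in neonates, an effector minus naive difference of 1.21. It is the only reading of Dtx3l and cannot be assigned to either gene. The dimmer second feature of Lgals3bp read 5.72 ± 0.20 (SD, n = 6), 6.99 ± 0.18 (SD, n = 6) and 5.62 ± 0.51 (SD, n = 3) in the same order, a difference of 1.27. The effector minus naive differences of both features had the sign of those of the features used for Parp9 and Lgals3bp. In neonates minus naive adults the second Lgals3bp feature gave -0.10 and the one used 0.40, which was not called.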

How the results depend on the processing

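Over 25 alternatives, 28 of 33 calls between effector and naive adults, 1 of 4 between neonates and naive adults (Ifitm2) and 24 of 28 between neonates and effector adults held in every one run, and 0 of these calls reversed. A stricter filter (percentile 60) removed Ifit2, Mx1, Oas2 and Ifitm1, and Ifitm1 also dropped out without the 3 least correlated arrays, so these genes were tested in 24, 24, 24 and 23. Leaving out 1 array at a time gave 28 to 32 genes higher after IL-33 with 1 lower each time, 1 to 2 higher and 1 to 4 lower in neonates against naive adults (2 higher without naive female 3, neonate 1 or neonate 3, and 1 lower without neonate 1), 0 to 1 higher (1 without neonate 3) and 25 to 30 lower against effector adults, 23 to 30 calls in females, 24 to 29 in males, and 0 to 2 between naive sexes (2 without naive male 3), with 0 for the gap between responses and between effector sexes. A 2-fold minimum left 0 genes lower after IL-33 and 0 lower in neonates against naive adults. Further quantile normalization gave 2 higher in neonates against naive adults. Fitting only the arrays compared gave 1 lower there, 1 higher in neonates against effector adults (Ifitm1) and 0 between naive sexes. Without the 3 least correlated arrays, 0 were lower in neonates against naive adults, 18 were called in males and 0 between naive sexes. Between naive sexes the count was also 0 without the filter and with array weights. The causes were not tested. Centring each array moved the median of all genes after IL-33 from 0.03 to 0.17 and that of the 37 from 1.24 to 1.38, so the 37 stood 1.21 above all genes under both scalings, and by 1.18 after quantile normalization. Samples of the same replicate number did not deviate together (30 pairs, r from -0.110 to 0.0991). The fit with the replicate block called 32 higher and 1 lower after IL-33, 1 and 2 in neonates against naive adults, 0 and 29 against effector adults, 28 in females, 27 in males, and 0 between naive sexes, between effector sexes and between responses. With 3 arrays a group and no raw intensities used here, levels near background limit Ifit2, Oasl2, Ifitm1 and Mx1 most. The naive adult means of Oas2, Isg15 and Eif2ak2, at 4.29, 4.47 and 4.54, also lay near the upper edge of the background range, 4.07. The naive male mean of Parp9 lay near that edge in naive males.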
